A study of Mus musculus with 8 samples.

Results

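Copines are the subject of these measurements, and the 9 genes *Cpne1* to *Cpne9* were read out of an RNA-seq table of 15039 genes from the mouse prefrontal cortex (PFC), in which all 9 were present. The family was chosen from the pair differences in these same data, so what follows on its members is a description and not independent evidence. The samples came from wild-type male mice of the strain C57BL/6NCrljOri, injected on both sides of the PFC at 6 weeks of age with AAV2/1, an adeno-associated virus. The 4 Rnf146-overexpressing mice received mouse *Rnf146* joined to eGFP, and the 4 eGFP-overexpressing control mice received eGFP alone. Both vectors used the human synapsin promoter (hsyn), which drives expression in neurons, and the PFC was taken 4 weeks after injection with its untransduced neurons, glia and vessels. By the account of the study, the sequenced Rnf146-overexpressing mice had been seen to overexpress *Rnf146* and to show social deficits, so they were not an unselected group. No such selection is stated for the control mice. Libraries carry replicate numbers 1 to 4 in each group, and same-numbered libraries formed a pair. What the mice of 1 pair had in common, such as a surgery day or a library batch, is not given in the sources used here. P-values from fits that keep the pairs describe the spread of the 4 pair differences in these samples.

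Copines are cytosolic proteins that bind phospholipid membranes when calcium rises. Each carries a pair of C2 domains, the calcium and lipid binding module also found in synaptotagmins, followed by a von Willebrand factor A-like domain that binds other proteins. Copine-6, also called neuronal copine, is the member best known in the forebrain. It is made by excitatory neurons, its expression responds to neuronal activity, and it moves to the membranes of dendritic spines, where it acts on spine structure through the GTPase Rac1. RNF146 itself is an E3 ubiquitin ligase that recognises poly(ADP-ribosyl)ated proteins such as Axin, the scaffold of the β-catenin destruction complex.

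All values are on a log2 scale, and a difference is the value in the Rnf146-overexpressing library minus the value in the eGFP-overexpressing library of the same number. The sum of the 2 libraries of a pair was the same for all 4 pairs of a gene, so each gene holds 4 independent differences, the libraries of a pair mirror each other, and the groups are apart exactly when all 4 differences share a sign. The lowest value in the table was 7.86. *Rnf146* checked the labels. Its difference was 2.82, 2.51, 2.66 and 2.58 in pairs 1 to 4, a mean of 2.64 ± 0.13 (SD, n = 4), the highest of all genes, and reads of the vector were counted with those of the endogenous gene. Across all genes the median mean difference was 0.0009 and the median SD of the 4 differences was 0.098.

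*Cpne6* and *Cpne9* were lower in the Rnf146-overexpressing PFC in every pair, *Cpne2* and *Cpne3* were higher in every pair by smaller amounts, and the other 5 copines went in both directions among the pairs. Thus 2 of the 9 copines were lower in all 4 pairs, against 10.2% of all genes, and 2 were higher in all 4 pairs, against 10.4% of all genes. In the limma fit with the replicate number as a block, 2 of 9 copines, *Cpne6* and *Cpne9*, passed a Benjamini-Hochberg adjusted p of 0.1 or less, where 1.25% of all genes did so in either direction and 0.432% did so with a lower value. Without the block 5 of 9 passed, and so did 21.5% of all genes. Since the differences chose the family, nothing is read from these shares. *Cpne9* and *Cpne6* ranked 12th and 28th from the lowest of the 15039 mean differences.

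**Figure D1:**
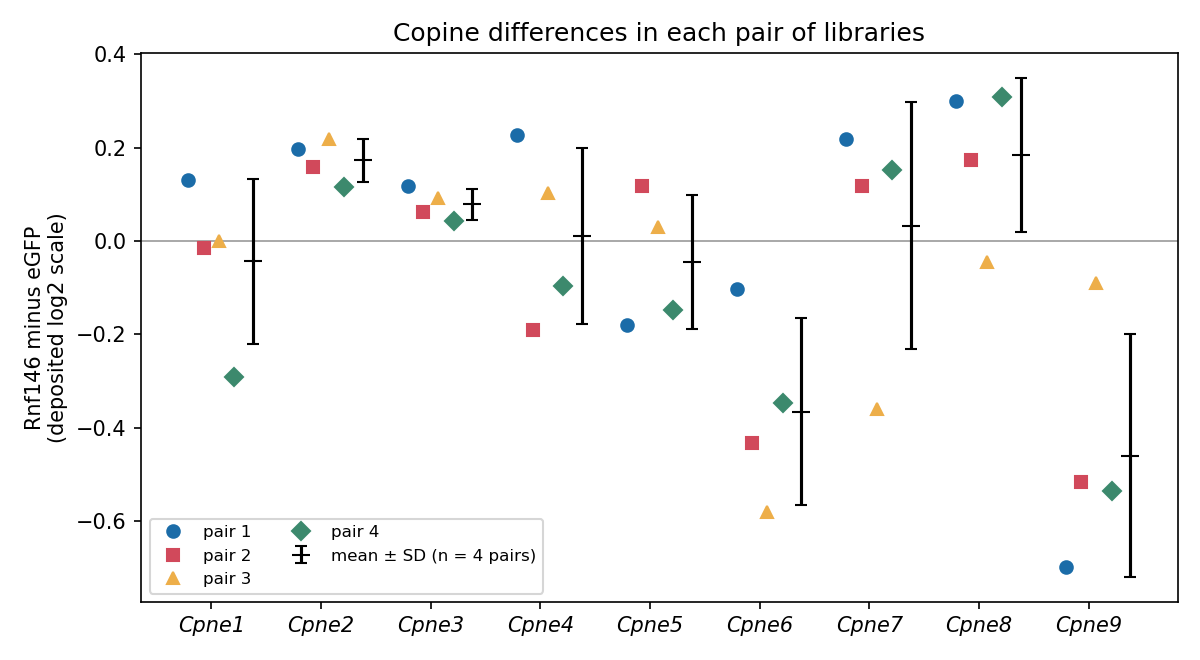
Difference between the Rnf146-overexpressing and the eGFP-overexpressing library (log2 scale, vertical axis) for each of the 9 copines, with 1 point for each of the 4 pairs and the mean ± SD of the pairs. All points of Cpne6 and Cpne9 lie below 0, those of Cpne2 and Cpne3 lie above 0 close together, and those of the remaining 5 lie on both sides.

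*Cpne9* had the largest mean difference of the family. The gene spans 113259076 to 113283068 on the plus strand of chromosome 6 in the GRCm39 build, and its canonical transcript has 21 exons. Its values were 10.48, 10.39, 10.18 and 10.40 in the eGFP-overexpressing libraries 1 to 4 and 9.79, 9.88, 10.09 and 9.87 in the Rnf146-overexpressing libraries. The groups did not overlap, but the eGFP-overexpressing library 3 and the Rnf146-overexpressing library 3 came within 0.09 of each other. The pair differences were −0.70, −0.52, −0.09 and −0.53, a mean of −0.46 ± 0.26 (SD, n = 4), with a limma Benjamini-Hochberg adjusted p of 0.0758. The SD was itself large, above that of 95.9% of genes, because pair 3 stood apart from the other pairs.

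*Cpne6* spans 55747176 to 55756011 on the plus strand of chromosome 14, and its canonical transcript has 16 exons. It measured 12.34, 12.50, 12.58 and 12.46 in the eGFP-overexpressing libraries and 12.23, 12.07, 11.996 and 12.11 in the Rnf146-overexpressing libraries. Here too the groups did not overlap, and the closest libraries were those of pair 1, not of pair 3. The differences were −0.10, −0.43, −0.58 and −0.35, a mean of −0.37 ± 0.20 (SD, n = 4), with a limma Benjamini-Hochberg adjusted p of 0.0824. The SD was above that of 90.5% of genes.

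The pair in which *Cpne9* differed most was the pair in which *Cpne6* differed least, and the reverse held for pair 3. Subtracting the *Cpne6* difference from the *Cpne9* difference gave −0.60, −0.08, 0.49 and −0.19, a mean of −0.09 ± 0.45 (SD, n = 4). That mean was small against its spread, so these 4 pairs do not tell whether the 2 means differ. The pair patterns were unlike.

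Which of the 2 genes passed changed with the pair left out. Without pair 2 or without pair 4 neither gene passed, in fits where 42 and 14 of all genes passed, against 188 with all pairs. The mean differences in those fits were −0.34 and −0.37 for *Cpne6* and −0.44 and −0.43 for *Cpne9*. In those limma fits on 3 pairs the adjusted p was 0.327 in both cases for *Cpne6*, and 0.300 and 0.330 for *Cpne9*. Without pair 1 *Cpne6* alone passed, at an adjusted p of 0.0202 against 0.104 for *Cpne9*. Without pair 3 *Cpne9* alone passed, at 0.0152 against 0.169 for *Cpne6*. The direction held throughout, and the mean difference ranged from −0.45 to −0.29 for *Cpne6* and from −0.58 to −0.38 for *Cpne9*.

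**Figure D2:**
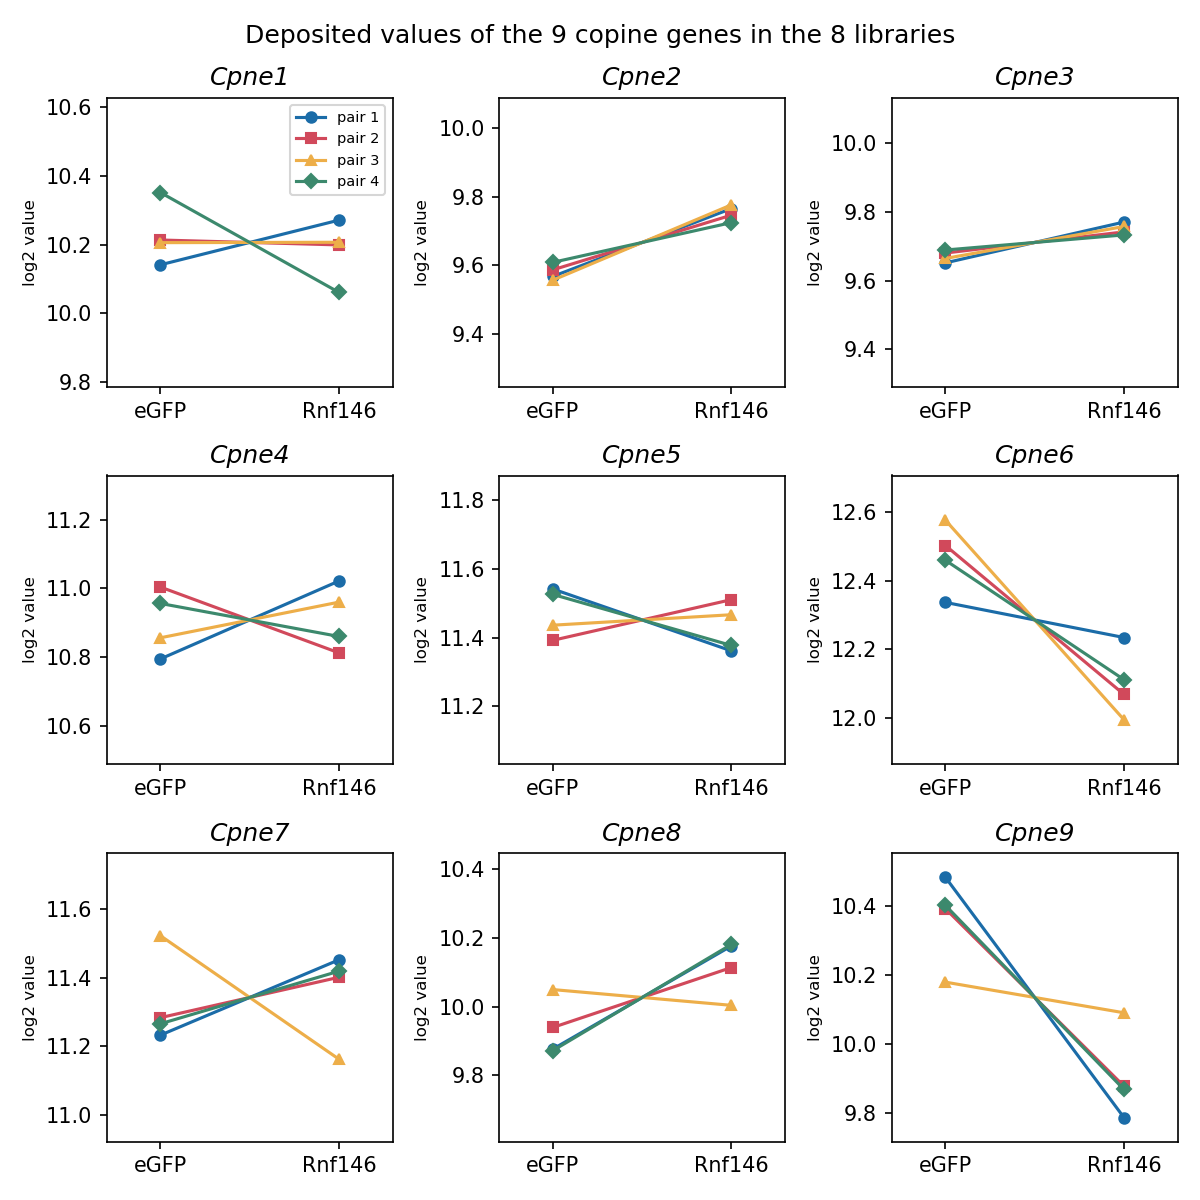
Deposited values (log2 scale, vertical axes that do not start at 0) of the copines in the 8 libraries, with a line joining the 2 libraries of each pair, eGFP-overexpressing on the left and Rnf146-overexpressing on the right. All 4 lines of Cpne6 and of Cpne9 go down, with the shallowest in pair 1 for Cpne6 and in pair 3 for Cpne9.

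The sequence just before each of these 2 genes is shown because they are the copines that were lower in every pair. Each is the 250 bases before the outermost annotated start of the gene in GRCm39, read 5′ to 3′ on the plus strand, chr14:55746926-55747175 for *Cpne6* and chr6:113258826-113259075 for *Cpne9*. Capitals mark the only match to CAGATG, a form of the E-box, here on the opposite strand. Other forms of the E-box were not searched and are not marked.
Cpne6: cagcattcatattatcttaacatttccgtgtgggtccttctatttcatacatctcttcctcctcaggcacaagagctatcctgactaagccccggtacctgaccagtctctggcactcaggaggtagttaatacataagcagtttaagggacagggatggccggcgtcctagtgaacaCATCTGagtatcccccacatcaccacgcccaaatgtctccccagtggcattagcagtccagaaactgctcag
Cpne9: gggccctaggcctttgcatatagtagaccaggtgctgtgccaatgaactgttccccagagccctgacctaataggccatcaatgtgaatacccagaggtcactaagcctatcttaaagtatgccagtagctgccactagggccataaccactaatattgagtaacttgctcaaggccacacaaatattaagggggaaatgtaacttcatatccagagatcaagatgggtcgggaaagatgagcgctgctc
The windows held 5 CpG dinucleotides for *Cpne6* and 2 for *Cpne9* against a median of 10 over 12822 gene windows of that length. Their GC contents of 49.6% and 47.6% were below the median of 54.4%. This was not particular to them, since the window of *Cpne4*, whose mean difference was 0.01, held 2 CpG dinucleotides at a GC content of 41.6%, and those of the other 6 copines held 10 to 22. Of 6 motifs searched on both strands, the window of *Cpne6* held CAGATG, a form of the E-box bound by basic helix-loop-helix factors, which 12.4% of all windows and 2 of the 9 copine windows hold. The window of *Cpne9* held none of the 6. The full cAMP response element TGACGTCA was in 1.5% of all windows and in no copine window. Its shorter form TGACG, which lies inside the full element, was in 3 of 9 copine windows and in 2566 of the 12822. The GC box GGGCGG was in 4 of 9 and in 39.5% of all, the Egr site GCGTGGG in 1 of 9 and in 5.2% of all, and the TATA box TATAAA in no copine window and in 8.2% of all. A match describes letters in these windows and not a bound site.

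*Cpne2* and *Cpne3* formed the opposite pattern of small differences that barely varied. *Cpne2* measured 9.57, 9.59, 9.56 and 9.61 in the eGFP-overexpressing libraries and 9.77, 9.75, 9.78 and 9.72 in the Rnf146-overexpressing libraries. Its differences of 0.20, 0.16, 0.22 and 0.12 averaged 0.17 ± 0.05 (SD, n = 4), and only 9.5% of genes had a smaller SD. Every Rnf146-overexpressing library was above every eGFP-overexpressing library, and *Cpne2* ranked 594th from the highest mean difference.

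*Cpne3*, which encodes a copine known to bind the receptor tyrosine kinase ErbB2, measured 9.65 to 9.69 in the eGFP-overexpressing libraries and 9.73 to 9.77 in the Rnf146-overexpressing libraries. The differences were 0.12, 0.06, 0.09 and 0.04, a mean of 0.08 ± 0.03 (SD, n = 4). The 2 groups were apart without overlap, yet by less than the median SD of all genes. Neither gene passed in the fit with the block, where the limma Benjamini-Hochberg adjusted p was 0.186 for *Cpne2* and 0.521 for *Cpne3*. Both passed in the fit without it, at 0.00297 and 0.0391. In limma the variance of each gene is drawn toward a trend over all genes, so the printed SDs do not alone set these p-values. With the block its standard errors were 0.046 for *Cpne2* and 0.045 for *Cpne3*, at SDs of 0.045 and 0.033. Those of *Cpne6* and *Cpne9* were 0.073 and 0.089, at SDs of 0.20 and 0.26.

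*Cpne8* followed *Cpne2* in size but not in regularity. Its differences were 0.30, 0.17, −0.05 and 0.31, a mean of 0.18 ± 0.17 (SD, n = 4). Values of 9.87 to 10.05 in the eGFP-overexpressing libraries overlapped those of 10.004 to 10.18 in the Rnf146-overexpressing libraries, through pair 3. *Cpne8* did not pass with the block (limma adjusted p of 0.307) and passed without it (0.0475).

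*Cpne7* had a mean near 0 that hid the widest spread of the family. Its differences were 0.22, 0.12, −0.36 and 0.15, a mean of 0.03 ± 0.26 (SD, n = 4), and the SD exceeded that of 96.1% of genes. The eGFP-overexpressing library 3 was the highest of the 8 at 11.52 and the Rnf146-overexpressing library 3 the lowest at 11.16. Pair 3 was thus the one pair in which *Cpne7* and *Cpne8* were lower, the pair in which *Cpne6* was lowest and the pair in which *Cpne9* differed least.

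The remaining copines had means within their own spread. *Cpne4*, expressed in retinal ganglion cells among other neurons, differed by 0.23, −0.19, 0.10 and −0.10, a mean of 0.01 ± 0.19 (SD, n = 4). *Cpne5* differed by −0.18, 0.12, 0.03 and −0.15, a mean of −0.04 ± 0.14 (SD, n = 4). *Cpne1*, a widely expressed copine, differed by 0.13, −0.01, 0.00 and −0.29, a mean of −0.04 ± 0.18 (SD, n = 4). In all 3 the groups overlapped, each was higher in 2 pairs and lower in 2, and the limma adjusted p was 0.970, 0.818 and 0.854 in that order.

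The reading of *Cpne1* has a limit of its own. The gene shares exons on the same strand with *Rbm12*, which encodes an RNA-binding protein, and with the read-through model *Gm28036*, so the split of their reads is uncertain. *Rbm12* differed by 0.26, 0.13, −0.53 and −0.21, and *Gm28036* by 0.49, 0.40, 0.21 and −0.27. *Cpne1* moved less than either in every pair but the fourth. *Spag4*, an overlapping gene transcribed the other way, had a mean of −0.02 ± 0.08 (SD, n = 4), and *Gm37274*, inside it on the same strand without a shared exon, one of 0.05 ± 0.03 (SD, n = 4).

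As a family the copines had no common direction. Mean differences were above 0 for 5 members and below 0 for 4, with a median of 0.01 beside 0.0009 for all genes. The 2 lower genes pulled the family mean to −0.05. Pair by pair, 6, 5, 5 and 4 of the 9 were higher in the Rnf146-overexpressing library, with medians of 0.13, 0.06, 0.00 and −0.10. The lowest member was *Cpne9* in pairs 1, 2 and 4 and *Cpne6* in pair 3.

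**Figure D3:**
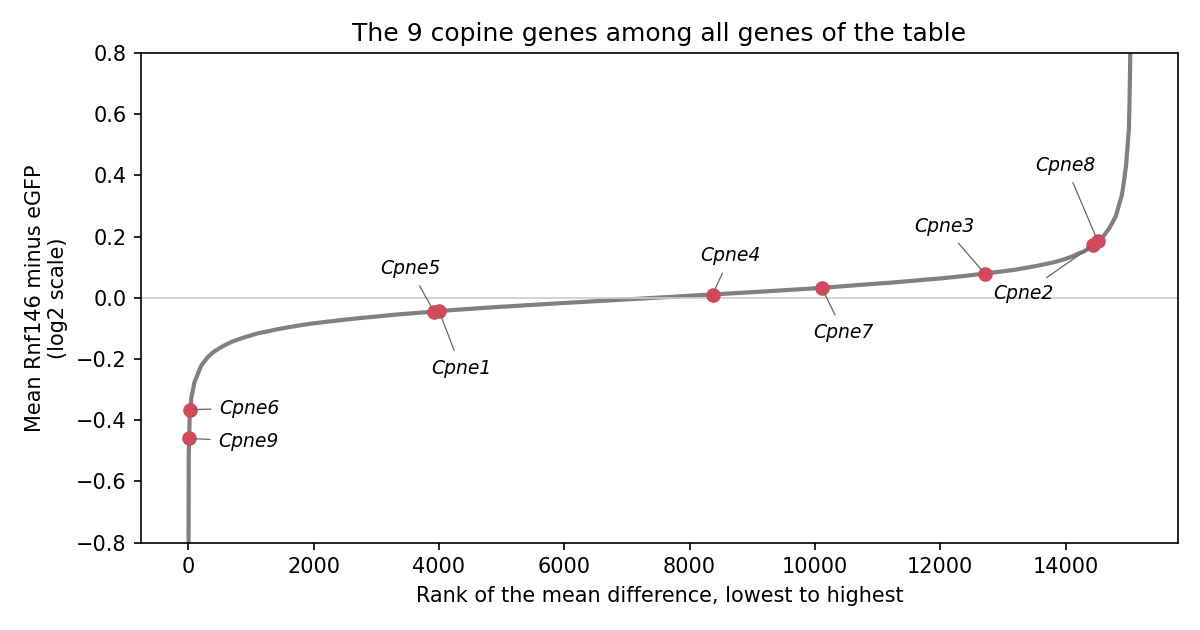
All 15039 genes in order of their mean difference (log2 scale, vertical axis) with the copines marked by name and the axis ending at −0.8 and 0.8, so that genes beyond, such as Rnf146, are not drawn. Cpne9 at rank 12 and Cpne6 at rank 28 sit in the lower tail, while Cpne2 and Cpne8, 594th and 524th from the highest, are the members furthest up.

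The tissue around the copines also differed between the groups. In bulk tissue fewer cells of a type and less RNA per cell cannot be told apart. The libraries held the markers of cortical excitatory neurons, and of these 20 genes 3 passed, all lower, namely *Slc17a7* (the vesicular glutamate transporter VGLUT1, −0.30 ± 0.14, SD, n = 4), the transcription factor *Neurod2* (−0.30 ± 0.13, SD, n = 4) and the neuronal pentraxin *Nptx1* (−0.31). The upper-layer marker *Cux2* had the largest mean difference of the list, −0.35 ± 0.21 (SD, n = 4), and did not pass. The list did not move as one, since 7 of the 20 had a mean above 0, 1 of them in every pair, with a highest mean of 0.28. Of the 13 with a mean below 0, 7 were lower in every pair, where 10.2% of all genes were lower and 10.4% higher in every pair. The list's median was −0.14, and its level, the mean over its genes, ranged from 11.61 to 11.67 in the eGFP-overexpressing libraries and from 11.54 to 11.59 in the Rnf146-overexpressing libraries. By pair it differed by −0.13, −0.12, −0.02 and −0.10, so it was least different in pair 3, as *Cpne9* was and *Cpne6* was not. With this list's level as a covariate beside the block, which leaves 2 residual degrees of freedom, the limma difference was −0.64 for *Cpne6* and 0.0016 for *Cpne9*, and neither passed.

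Markers of neighbouring regions differed as well. Of 14 septum and basal forebrain markers 11 were in the table, and 10 of the 11 passed, all higher. They included the transcription factor *Zic1* (0.99) and the Notch ligand-like *Dlk1* (0.90). *Lhx8*, *Chat* and *Gbx1* were not among the genes tested. Their list ranged from 9.05 to 9.26 in the eGFP-overexpressing and from 9.57 to 9.79 in the Rnf146-overexpressing libraries, with pair differences of 0.52, 0.74, 0.31 and 0.60. Of 13 striatal markers 2 passed, *Six3* and *Isl1*, both higher. All 13 had a mean above 0 and 5 were higher in every pair, where 10.4% of all genes were. *Penk*, the enkephalin precursor, and the dopamine receptor *Drd2* had the largest means of that list, 0.77 ± 0.80 and 0.74 ± 0.54 (SD, n = 4), and did not pass. The striatal list differed by −0.02, 1.06, 0.62 and 0.29 in pairs 1 to 4, and its levels of 9.60 to 10.14 and 10.12 to 10.66 in the 2 groups overlapped. In pair 1, where *Cpne9* was lowest, the near-zero mean of the striatal list held genes of both signs, with *Six3* at 0.37, *Isl1* at 0.29, *Drd2* at 0.15 and *Penk* at −0.19. With the level of both lists as a covariate the limma difference was −0.17 for *Cpne6* and −0.54 for *Cpne9*, and neither passed, at an adjusted p of 0.982 for both.

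Oligodendrocyte markers differed by −0.15, 0.45, 0.87 and 0.53, so they were highest in pair 3 and lowest in pair 1, the pairs with the largest and the smallest *Cpne6* difference. Pairs 2 and 4 did not keep that order, with *Cpne6* at −0.43 and −0.35. A link was not tested. All 10 oligodendrocyte markers had a mean above 0, and 0 of them were higher in every pair, where 10.4% of all genes were. None of the 10 passed with the block, while 9 had an unadjusted limma p under 0.05. No share of all genes under that cut is given, here or for the lists below, so nothing is read from such counts. The level of the oligodendrocyte markers ranged from 11.56 to 12.07 and from 11.92 to 12.43 in the 2 groups. *Gad1*, *Gad2* and *Slc32a1*, which every GABA neuron uses, were higher and passed, at 0.45, 0.64 and 0.53, among 10 interneuron markers with a median of −0.01. The list was split, with 5 of the 10 below 0, 2 of them in every pair, and a lowest mean of −0.23. Of 8 microglial markers 1 passed, the complement gene *C1qb* (−0.26), and the median was −0.15. All 8 had a mean below 0 and 6 were lower in every pair, where 10.2% of all genes were. The microglial level ranged from 10.27 to 10.37 in the eGFP-overexpressing and from 10.09 to 10.18 in the Rnf146-overexpressing libraries. Of 6 ependymal markers 3 were measured and 2 of these passed, *Foxj1* (0.32) and *Rarres2* (0.35). None of 9 astrocyte and none of 7 endothelial markers passed, and 0 in either list had an unadjusted limma p under 0.05, with medians of −0.01 and −0.00.

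**Figure D4:**
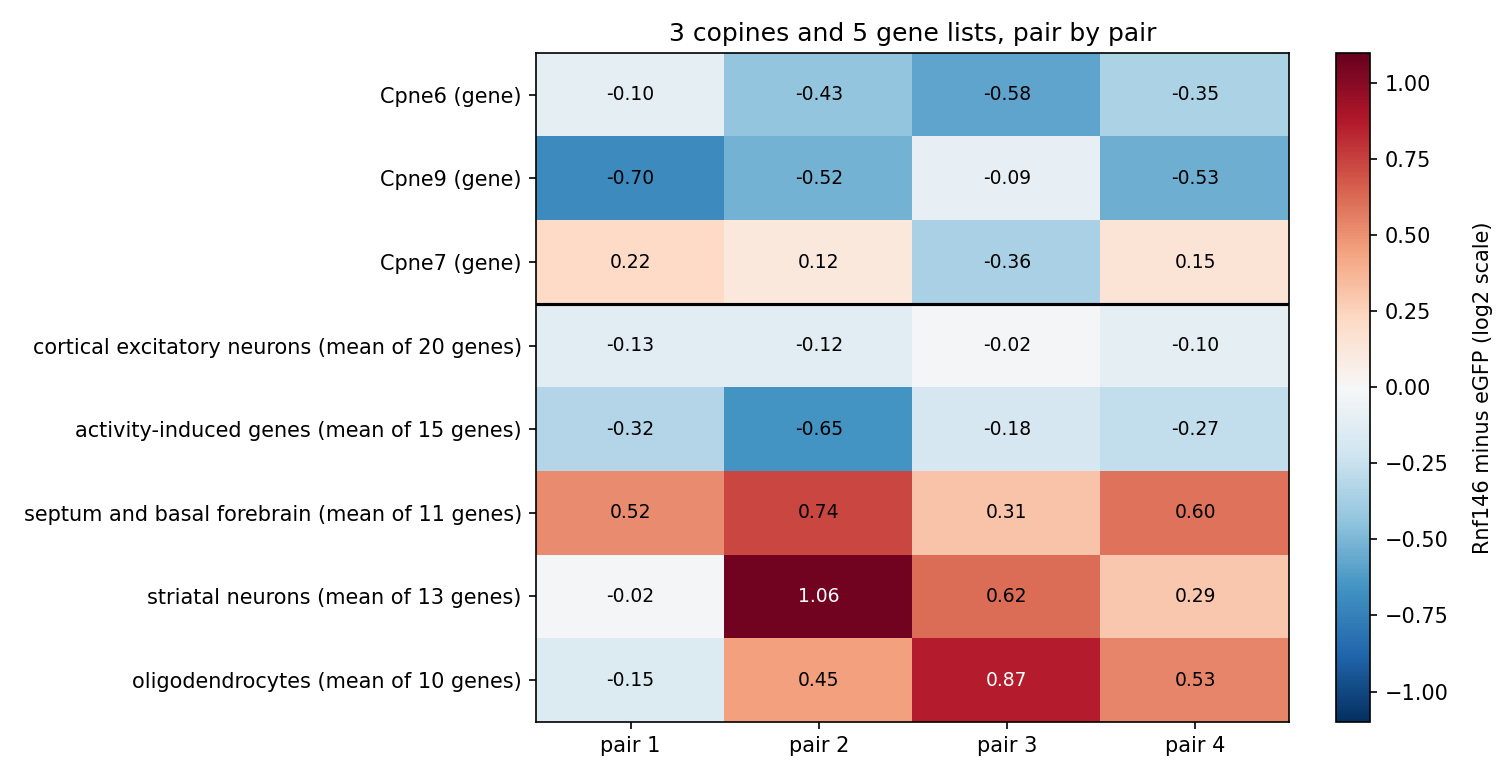
Differences (log2 scale, colour and printed values) of 3 copines and of the means of 5 gene lists in each of the 4 pairs. Cpne6 is lowest in pair 3, where oligodendrocyte markers are highest at 0.87. Cpne9 is lowest in pair 1, where the septal list mean differs by 0.52 and the striatal and oligodendrocyte list means by −0.02 and −0.15. No link between these was tested.

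Other membrane proteins with C2 domains did not share a direction. Of 34 measured, among them synaptotagmins, Doc2 proteins and protein kinase C forms, 17 had a mean above 0 and 17 below, and the median was −0.00. In every pair 7 of the 34 were lower and 2 were higher, against 10.2% and 10.4% of all genes. *Syt17*, an atypical synaptotagmin, was the 1 gene that passed, with a difference of −0.07, −0.49, −0.41 and −0.44, a mean of −0.35 ± 0.19 (SD, n = 4) and a limma Benjamini-Hochberg adjusted p of 0.0875. Its smallest difference was in pair 1, as for *Cpne6*. *Doc2a*, a calcium sensor of spontaneous and asynchronous transmitter release, differed by −0.29 ± 0.16 (SD, n = 4) and did not pass.

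None of 6 genes whose products are known to act with copines passed, and 1 of them had an unadjusted limma p under 0.05. They were *Rac1* and *Cdc42*, *Bdnf* and its receptor *Ntrk2*, the vesicle SNARE *Vamp2* and *Erbb2*, with a median of 0.02. *Bdnf* differed most, by −0.23, −0.72, −0.09 and −0.27, a mean of −0.33 ± 0.27 (SD, n = 4). *Erbb2* was higher in every pair by a mean of 0.06 ± 0.02 (SD, n = 4), a difference of the size seen for *Cpne3*.

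Because *Cpne6* responds to activity, 15 activity-induced genes were read beside it. All 15 had a mean below 0 and 11 were lower in every pair, where 10.2% of all genes were. Of the 15, 3 passed, where 0.432% of all genes passed with a lower value. These 3 were *Fos* (−0.51), *Junb* (−0.44) and *Fosb* (−0.42), which encode subunits of the AP-1 transcription factor. *Arc*, a spine and endosome protein, had the largest mean, −0.66 ± 0.55 (SD, n = 4), and did not pass. The list's median was −0.33, and its pair differences were −0.32, −0.65, −0.18 and −0.27. Activity-induced genes differed most in pair 2, where neither *Cpne6* nor *Cpne9* had its largest difference. They differed least in pair 3, where *Cpne9* also differed least (−0.09) and *Cpne6* most (−0.58). The part of activity in the copine differences was not tested.

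The 5 genes whose 4 differences lay nearest to those of *Cpne9* in Euclidean distance over the pairs were *Epop*, *Stab1*, *Rasl10a*, *Rtn4rl2* and *Fmnl1*, at distances of 0.317, 0.320, 0.323, 0.339 and 0.340. *Epop* encodes a regulator of Polycomb complex 2, *Stab1* a scavenger receptor, *Rasl10a* a Ras-like small GTPase, *Rtn4rl2* a receptor of the Nogo receptor family and *Fmnl1* an actin-assembling formin. Their mean differences were −0.48, −0.35, −0.42, −0.41 and −0.36, and in all 5 the smallest difference was in pair 3, as in *Cpne9*. That likeness is built in, since these 5 were picked by their distance to *Cpne9* over the same differences. *Cpne6* was only the 860th nearest gene to *Cpne9*, at a distance of 0.799. The genes nearest to *Cpne6*, looked up after its values were seen, were *Bhlhe22*, *Fosb*, *Syt17*, *Otof* and *Hrk*, at distances of 0.183 to 0.212, and *Cpne9* was the 5952nd. The 2 copines that were lower in every pair shared none of their 5 nearest genes. That tells little, since each set was only 5 genes picked by distance.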

How the data were processed

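Total RNA from the dissected PFC of 4 eGFP-overexpressing and 4 Rnf146-overexpressing mice was sequenced from TruSeq stranded mRNA libraries. According to the methods and the submitters' processing notes, the authors used Cutadapt for trimming and Salmon 1.9.0 for transcript abundance, against GENCODE vM30 (GRCm39). The notes also name DESeq2 without a role. The deposited values are on a log2 scale (7.86 to 18.8), and the authors' transformation and the step that gave equal pair sums (spread at most 1.4e-13) are not given in the sources used here. The equal sums are where the pairing comes from. Neither counts nor library totals were used, so depth is unknown and no count test was run.

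limma 3.58.1 in R 4.3.3 was fitted to all 15039 genes (lmFit, eBayes with trend) with the replicate number as a block, leaving 3 residual degrees of freedom (6 without the block). Benjamini-Hochberg adjustment covered all genes, and an adjusted p of 0.1 or less, the false discovery rate of the study, was said to pass. The fit was tested on simulated data. Gene positions and windows were read from the GRCm39 genome with a later GENCODE annotation, and windows on chromosome 18 were left out of the background. The members, the gene lists and the tests were chosen with earlier results of these data known. The genes named are all members, *Rnf146*, for each list the genes that passed or had the 2 largest mean differences (some given only as counts), the genes overlapping a member and the 5 nearest to *Cpne9*. The 12 lists were markers of 9 cell types or regions, other C2 domain proteins, copine partners and activity-induced genes. Alternatives were the fit without the block, a filter on low values, median centring, quantile normalization, 3 variance settings, covariates for marker levels, a correction for GC content and length, a stricter threshold and leaving out each pair.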

Additional observations from a re-analysis of the deposited data

How the results depend on the processing

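With the replicate number as a block, 188 genes, 2 copines and 25 genes of the lists passed. Without the block these were 3226, 5 and 83, because the pair sums had been equalised and the fit counts 6 residual degrees of freedom. Array weights gave 355 genes and 42 list genes with the same 2 copines. At an adjusted p of 0.05 or less 80 genes, 0 copines and 14 list genes passed. With the excitatory neuron level as a covariate 2 genes, 0 copines and 0 list genes passed in limma, and with the striatal and septal level 1, 0 and 0, with 2 copines under an unadjusted p of 0.05 in each. In the former fit the *Cpne9* difference turned to 0.0016 (adjusted p of 0.999) and that of *Epop* to 0.0341. The correction for GC content and length, known for 97.0% of genes, left 1 copine, *Cpne9* (limma adjusted p of 0.0958, against 0.129 for *Cpne6*). Leaving out a pair gave 14 to 421 genes, 0 to 1 copines and 2 to 49 list genes. The lowest counts came without pair 4 (14 genes) and without pair 2 (42 genes), where 0 copines passed and 3 had an unadjusted limma p under 0.05. With all pairs and the block, 4 of 9 copines had such an unadjusted limma p. The share of all genes under that cut is not given, so nothing is read from the counts at an unadjusted p. Dropping the genes of lowest mean value (11279 kept), median centring, quantile normalization and untrended or robust variances kept *Cpne6* and *Cpne9* past the threshold. Over the alternatives the adjusted p ranged from 0.00781 to 0.982 for *Cpne6* and from 0.00856 to 0.999 for *Cpne9*. Of 590 differences of members and named genes recomputed under the alternatives without a marker covariate 1 moved by an SD or more, against 62 of 120 with one. Marker levels were means over the list genes, so genes of those lists were adjusted for a level that contains them. Their part in the latter count, and in the list genes that no longer passed, is thus partly built in. The causes of these changes were not tested. *Cpne3*, at 0.08 ± 0.03 (SD, n = 4), was higher in all 4 pairs and did not pass with the block. That fit gave it a standard error of 0.045 and adjusted over all genes, so a missing call there does not show an absent difference. Depth is unknown.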
